A study of Mus musculus with 5 samples.

Results

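The collagen chain genes were taken as all genes with a probe set of their own whose symbol is Col, a number, the letter a and a number, as in Col1a1. There were 42 of them among the 18193 genes that the arrays measured with a probe set annotated to 1 gene alone. For each gene the brightest of its probe sets, by the mean of the 5 arrays, was used. The RNA came from GFP+ cells sorted from lungs of E17.5 FOXJ1-GFP embryos, and the sample titles call these lung ciliated cells. FOXJ1-GFP is a transgene in which the promoter of FOXJ1, a transcription factor of ciliated cells, drives GFP. Its carriers were mated with out-bred ICR mice, and the lungs were dissociated with trypsin/EDTA before sorting. All 5 samples were biological replicates of this 1 group, with 1 Affymetrix array each, and no control or untreated sample was analysed here. Whether embryos were pooled within a sample, or litters differed between samples, is not stated, and the p-values cover only the spread among these 5 arrays.

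Collagens are secreted proteins in which 3 chains wind into a triple helix, and each gene codes for 1 chain. Fibrillar collagens form the banded fibres of connective tissue and are made mainly by fibroblasts, smooth muscle cells and chondrocytes. Basement membrane collagens form the sheet on which epithelial and endothelial cells sit, and in the lung both sides of the air-blood barrier contribute to it. The remaining chains include the beaded filaments of type VI, the fibril-associated collagens that decorate fibrils, the short-chain collagens that form hexagonal networks, and transmembrane collagens that stay in the cell surface. By this scheme 11 of the 42 genes were fibrillar, 9 were basement membrane genes and 22 belonged to other classes.

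The values are log2 signals as deposited, and probe sets differ in how brightly they report a transcript, so no gene's level was ranked against another's. Each mean was compared with a background level of 7.40, the 95th percentile over 140 genes not anticipated in lung, of which 77 were odorant, pheromone or taste receptors and 63 belonged to other tissues. Of these 140 genes, 7 were themselves above it by the same test, all of them among the 63 of other tissues. The level is a percentile of these same genes, so that count follows from the percentile chosen and measures no error rate. Over the whole array, Pearson's r between pairs of arrays across probe sets lay between 0.987 and 0.994. Of 19 genes of motile cilia, 18 were above background, among them Foxj1 at 12.82 ± 0.08 (SD, n = 5 arrays); the exception was Spag6 at 3.67 ± 0.13. All 13 epithelial genes on the list were above background. All 15 endothelial genes, which are not markers of ciliated cells, were above background as well. Of 23 mesenchymal genes other than collagens, also not markers of ciliated cells, 12 were above it (52.2%). The share over all genes was 62.6%.

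Of the 42 collagen genes, 27 were above background (64.3%, limma, adjusted p under 0.05 over all probe sets), with adjusted p between 9.56e-11 for Col4a1 and 0.000278 for Col16a1. The share over all genes was 62.6%, close to that of the collagen genes. By class, 6 of 11 fibrillar, 8 of 9 basement membrane and 13 of 22 other genes were above it. The median distance from the background level was 2.30 for fibrillar, 2.61 for basement membrane and 1.03 for other genes, against 1.68 for all genes. Under each of the 14 alternative settings that gave the gene a value, 10 genes kept their call above background, namely Col1a1, Col1a2, Col3a1, Col4a1, Col4a2, Col4a5, Col5a2, Col6a1, Col6a2 and Col8a2, and 6 were called under none, namely Col9a2, Col10a1, Col11a2, Col17a1, Col19a1 and Col24a1. The calls of the other 26 depended on the background chosen or on the probe set. Raising the level to the 99th percentile, 10.38, left 10 collagen genes called, and taking the receptor genes alone, at 5.43, gave 36. That higher level lies between the means of Pomc, 10.01, and Ttr, 10.61, tissue genes that were themselves above background.

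**Figure D1:**
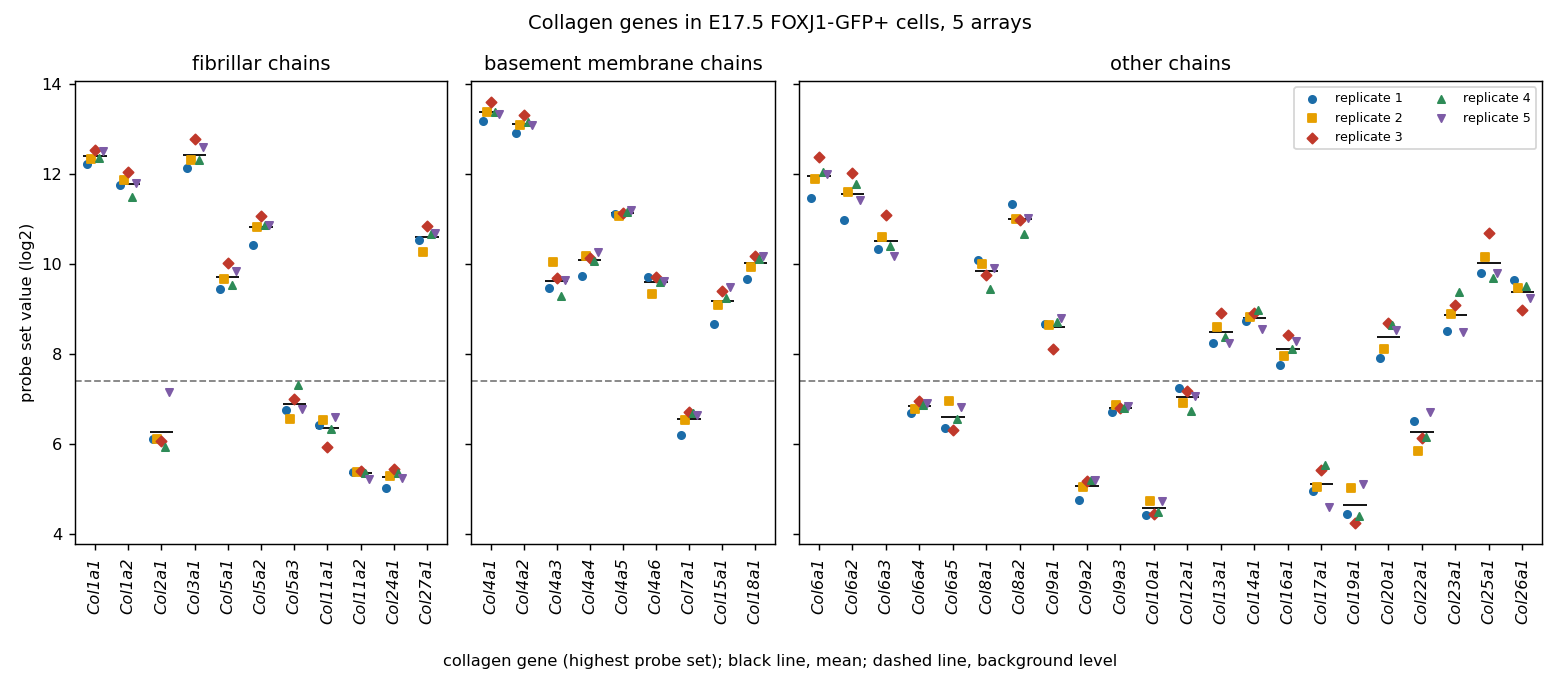
The 42 collagen genes in FOXJ1-GFP+ cells, by class. The vertical axis gives the log2 value of each gene's brightest probe set; each symbol is 1 replicate, the short line the mean and the dashed line the background level of 7.40, and levels of different genes are not comparable. Of the basement membrane genes only Col7a1 lies below the line on all arrays, while 5 fibrillar genes do.

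The fibrillar genes above background were the chains of types I, III and XXVII and 2 of the 3 type V chains, while Col5a3 and the chains of types II, XI and XXIV were not. Col1a1 and Col1a2 code for the chains of type I collagen, the main fibril of connective tissue. Col1a1 had values of 12.22, 12.33, 12.54, 12.35 and 12.50 in replicates 1 to 5, a mean of 12.39 ± 0.13 (SD, n = 5 arrays; 4.99 above background, adjusted p = 1.48e-10, limma). Col1a2 had 11.75, 11.86, 12.03, 11.48 and 11.79, a mean of 11.78 ± 0.20. Both were highest in replicate 3, but Col1a1 was lowest in replicate 1 and Col1a2 in replicate 4. Col3a1, whose product forms fibrils together with type I in distensible tissues, had values of 12.12, 12.31, 12.77, 12.30 and 12.59. The highest array, replicate 3, lay 0.65 above the lowest, replicate 1, which is 1.57-fold.

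The promoters of Col1a2 and Col3a1 are shown as those of a pair of fibrillar genes that were both highest in replicate 3. The sequences are the 150 bases before the annotated start from RefSeq (GRCm38.p6), chr6:4505468-4505617 on the + strand for Col1a2 and chr1:45311388-45311537 on the + strand for Col3a1. Capitals mark matches on either strand. One motif searched was the TATA box, spelled TATAAA. Another was the CCAAT box, named by its letters, and the last was the GC box, spelled GGGCGG.
Col1a2: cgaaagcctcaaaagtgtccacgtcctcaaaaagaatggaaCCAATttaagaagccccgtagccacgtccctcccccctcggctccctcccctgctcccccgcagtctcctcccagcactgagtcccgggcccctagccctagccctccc
Col3a1: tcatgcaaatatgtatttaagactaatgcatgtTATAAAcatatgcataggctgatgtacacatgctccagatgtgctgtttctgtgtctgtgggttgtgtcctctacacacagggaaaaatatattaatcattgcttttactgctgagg
Col1a2 holds CCAAT at bases 109 to 105 before the start, and Col3a1 holds TATAAA at bases 117 to 112.

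Type V collagen is a minor component of type I fibrils and sets their diameter. Col5a1 had values of 9.44, 9.67, 10.02, 9.52 and 9.84 in replicates 1 to 5, with a mean of 9.70 ± 0.23 (SD, n = 5 arrays). Col5a2 had 10.43, 10.83, 11.06, 10.86 and 10.87, with a mean of 10.81 ± 0.23. Both chains were lowest in replicate 1 and highest in replicate 3. The third chain, Col5a3, had 6.76, 6.55, 6.99, 7.31 and 6.77, below the background level on every array. Col27a1, a fibrillar collagen known from cartilage, had 10.53, 10.26, 10.83, 10.67 and 10.68, and both of its probe sets were above background.

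Apart from Col27a1, given above, 7 chains best known from cartilage were examined, and 1 of them was above background. Col2a1, which codes for the main collagen of cartilage, had values of 6.12, 6.11, 6.05, 5.93 and 7.15 in replicates 1 to 5. Replicate 5 lay above the other arrays, yet below the background level. Col11a1, with 6.41, 6.53, 5.93, 6.32 and 6.59, and Col9a3, with 6.70, 6.86, 6.80, 6.80 and 6.83, were not called. Col11a2 at 5.35 ± 0.07, Col9a2 at 5.07 ± 0.19 and Col10a1, of hypertrophic cartilage, at 4.56 ± 0.16 (SD, n = 5 arrays) were not called either. Of these 7 chains Col9a1 alone was, with values of 8.66, 8.64, 8.11, 8.71 and 8.80; its second probe set, at 5.59 ± 0.31, was not. Among 9 further cartilage genes, listed after these values had been seen, 2 were above background (22.2%, against 62.6% of all genes). They were Hapln1 at 12.12 ± 0.04 and Chad at 9.06 ± 0.51. Acan, at 5.53 ± 0.20, and Matn1, at 4.15 ± 0.16, were among the 7 not called.

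Of the basement membrane genes, all 6 type IV chains were above background. Type IV collagen assembles from chains encoded as 3 head-to-head gene pairs, of which Col4a1 and Col4a2 serve nearly all basement membranes. Col4a1 had values of 13.18, 13.38, 13.59, 13.37 and 13.33 in replicates 1 to 5 (mean 13.37 ± 0.15, SD, n = 5 arrays; 5.98 above background, adjusted p = 9.56e-11, limma). Col4a2 had 12.92, 13.09, 13.31, 13.14 and 13.09 (mean 13.11 ± 0.14). The arrays deviated in the same way for both chains. The deviations of Col4a1 and Col4a2 from their own means differed by only 0.02 on average and by 0.03 at most, the smallest average difference among all 351 pairs of collagen genes above background. This holds for 1 probe set of Col4a1: the other, also above background at 12.44 ± 0.19 (SD, n = 5 arrays), was highest in replicate 2 and differed from Col4a2 by 0.082 on average and 0.20 at most. In the RefSeq annotation the starts of this pair lie 21 bases apart on opposite strands, with the transcribed parts overlapping there.

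Col4a3 and Col4a4 code for chains that join with Col4a5 in the glomerulus and in the lung alveolus. Col4a3 had values of 9.46, 10.04, 9.68, 9.28 and 9.65, with replicate 2 highest and replicate 4 lowest. Col4a4 had 9.73, 10.17, 10.14, 10.07 and 10.27. The deviations of this pair had the same sign on all 5 arrays but differed by 0.20 on average. The second probe set of Col4a3, at 7.73 ± 0.49, was not above background, and of 3 probe sets of Col4a4 the lowest, at 5.76 ± 0.16, was not.

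Col4a5 and Col4a6, on the X chromosome, code for chains of a further network, known from the basement membranes of skin and smooth muscle. Col4a5 had values of 11.11, 11.07, 11.13, 11.15 and 11.20, and its SD of 0.05 was the smallest among the collagen genes above background. Col4a6 had 9.71, 9.33, 9.71, 9.60 and 9.62, with replicate 2 below the other arrays. For both genes the second probe set did not follow the first. That of Col4a5 had 10.91, 10.95, 10.41, 10.39 and 10.77, and that of Col4a6 had 8.18, 8.05, 7.59, 7.69 and 7.88. The average difference in deviation between probe sets was 0.24 for Col4a5 and 0.25 for Col4a6, the 2 largest among 13 pairs of probe sets of 1 collagen gene, so the small SD of Col4a5 holds for 1 probe set only.

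The starts of Col4a5 and Col4a6 lie 1343 bases apart, facing away from each other, and the 150 bases before each start are shown as the 2 sides of this shared region (chrX:141475269-141475418 on the + strand and chrX:141474077-141474226 on the - strand, GRCm38.p6; capitals as above).
Col4a5: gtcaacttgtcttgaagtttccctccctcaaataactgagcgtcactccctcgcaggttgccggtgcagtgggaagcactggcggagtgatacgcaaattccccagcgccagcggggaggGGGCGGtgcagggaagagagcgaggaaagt
Col4a6: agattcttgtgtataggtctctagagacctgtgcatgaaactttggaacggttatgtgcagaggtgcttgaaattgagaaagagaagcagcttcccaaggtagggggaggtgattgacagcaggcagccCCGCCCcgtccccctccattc
Both hold 1 GC box, at bases 30 to 25 before the start of Col4a5 and, on the opposite strand, at bases 21 to 16 before that of Col4a6.

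Col15a1 and Col18a1 code for collagens of the basement membrane zone, and fragments of type XVIII include endostatin. Col15a1 had values of 8.65, 9.09, 9.40, 9.23 and 9.47 in replicates 1 to 5, and Col18a1 had 9.66, 9.94, 10.16, 10.11 and 10.17. Both were lowest in replicate 1 and highest in replicate 5 on these probe sets. For Col18a1, replicate 5 lay barely above replicate 3, at 10.171 against 10.164. The second probe set of Col18a1 was above background as well, at 9.85 ± 0.25 (SD, n = 5 arrays). That probe set was highest in replicate 4, at 10.07 against 9.96 in replicate 5. Col7a1, which forms the anchoring fibrils below stratified epithelia, was the exception in this class, with values of 6.19, 6.53, 6.70, 6.69 and 6.64.

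Among the other classes, the type VI chains had some of the widest ranges between arrays. Type VI collagen forms beaded microfibrils near cell surfaces, and its common form joins the products of Col6a1, Col6a2 and Col6a3. Col6a1 had values of 11.46, 11.89, 12.37, 12.03 and 11.998 in replicates 1 to 5, and Col6a2 had 10.96, 11.61, 12.01, 11.77 and 11.43. Replicate 1 was lowest and replicate 3 highest for both, with 1.88-fold and 2.07-fold between them. Col6a3 had 10.33, 10.59, 11.08, 10.39 and 10.17, also highest in replicate 3 but lowest in replicate 5. The deviations of Col6a1 and Col6a2 differed by 0.11 on average, while those of Col6a3 differed from Col6a1 by 0.24 and from Col6a2 by 0.22. Col6a4, with 6.69, 6.78, 6.95, 6.85 and 6.91, and Col6a5, with 6.35, 6.95, 6.30, 6.56 and 6.81, were not called. Col26a1 had 9.64, 9.45, 8.98, 9.51 and 9.24 on one probe set, with replicate 3 lowest, and 3.66 ± 0.16 on the other, so its call rests on 1 of 2 probe sets.

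Type VIII collagen, a short-chain network known from vessels and from Descemet's membrane of the eye, showed another order of the arrays. Col8a1 had values of 10.09, 9.99, 9.75, 9.44 and 9.91 in replicates 1 to 5 (mean 9.84 ± 0.25, SD, n = 5 arrays), and Col8a2 had 11.33, 11.01, 10.98, 10.67 and 11.01 (mean 10.998 ± 0.235). Both were highest in replicate 1, as 31.1% of all genes above background were, and both were lowest in replicate 4, as 14.8% of all genes were. The deviations of the 2 chains had the same sign on all 5 arrays and differed by 0.08 on average. The other 2 probe sets of Col8a1 were not above background.

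The 150 bases before the starts of Col8a1 and Col8a2 are shown because this pair had replicate 1 highest, where most collagen genes lay below their means (chr16:57754738-57754887 on the - strand and chr4:126286644-126286793 on the + strand, GRCm38.p6; capitals as above).
Col8a1: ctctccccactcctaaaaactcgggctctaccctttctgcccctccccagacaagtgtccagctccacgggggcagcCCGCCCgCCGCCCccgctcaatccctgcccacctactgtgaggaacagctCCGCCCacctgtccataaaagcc
Col8a2: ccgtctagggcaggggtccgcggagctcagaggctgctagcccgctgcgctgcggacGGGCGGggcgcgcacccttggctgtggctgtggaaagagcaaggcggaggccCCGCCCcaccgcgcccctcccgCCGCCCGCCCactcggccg
Col8a1 holds 3 GC boxes in this stretch and Col8a2 holds 4, of which the last 2 overlap. Over 36 RefSeq windows of 250 bases before a start, from 33 collagen genes, 21 held a GC box on either strand (58.3%), against 32.7% of all 32851 windows of that length. The CCAAT box was in 36.1% of the collagen windows and 33.8% of all windows, and the TATA box in 13.9% and 12.4%. The median GC content was 59.0% in the collagen windows and 52.4% in all windows. Such a match is a description of letters only.

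Of the 4 transmembrane collagens, 3 were above background (75.0%, against 62.6% of all genes). Col13a1, which localises to cell-matrix junctions and the neuromuscular synapse, had values of 8.25, 8.60, 8.90, 8.37 and 8.25 in replicates 1 to 5. Col23a1 had 8.51, 8.88, 9.08, 9.38 and 8.47, and Col25a1, known from neurons and their muscle targets, had 9.80, 10.15, 10.68, 9.70 and 9.79. Col25a1 had the largest SD of the collagen genes above background, 0.41, and its second probe set, at 5.78 ± 0.16 (SD, n = 5 arrays), was not called. Col17a1, a component of hemidesmosomes and a marker of basal cells, had 4.95, 5.03, 5.41, 5.54 and 4.60, more than 2 log2 units below the background level in the mean (-2.29).

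Of 9 fibril-associated collagens, 4 were above background (44.4%, against 62.6% of all genes). Col14a1 had values of 8.74, 8.83, 8.91, 8.98 and 8.55 in replicates 1 to 5, Col16a1 had 7.75, 7.94, 8.41, 8.12 and 8.29, and Col20a1 had 7.90, 8.11, 8.68, 8.65 and 8.53. Col9a1 is given above. Of 3 probe sets of Col14a1 and 4 of Col20a1, only 1 each was called. Col12a1, with 7.25, 6.92, 7.18, 6.74 and 7.07, and Col22a1, with 6.498, 5.85, 6.13, 6.14 and 6.71, were not called. Neither was Col19a1, at 4.63 ± 0.39 (SD, n = 5 arrays). Over all classes, 82 probe sets measured the 42 genes and 40 of them were above background. Of the 27 genes with several probe sets, 9 had all of them above background, 7 had none and 11 had a mixture. No matching share over all probe sets of the arrays is given here, so these counts are a description only.

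**Figure D2:**
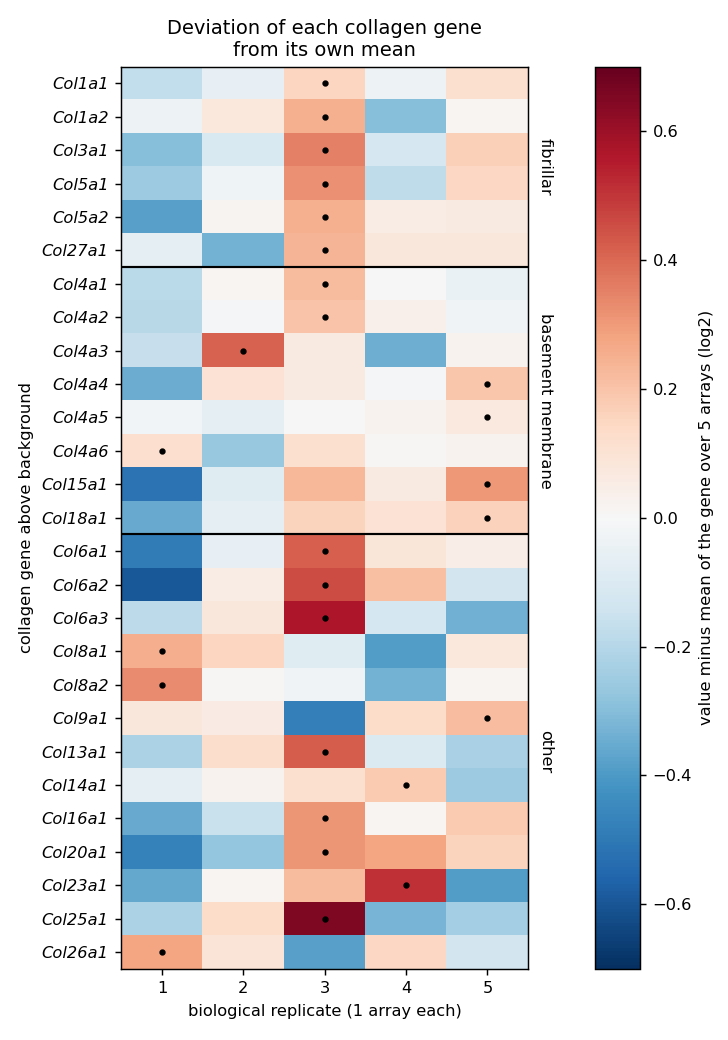
Deviation of the 27 collagen genes above background from their own means. Each row is a gene, each column 1 biological replicate, the colour the log2 distance from that gene's mean, and the dot the array with the highest value. All 6 fibrillar genes have the dot in replicate 3, and Col4a6, Col8a1, Col8a2 and Col26a1 have it in replicate 1.

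Between the replicate arrays, most collagen genes moved in the same direction, with replicate 3 high and replicate 1 low. Of the 27 genes above background, 15 had their highest value in replicate 3, where 20.5% of all genes above background had theirs, and 13 had their lowest value in replicate 1, against 20.6% of all genes. In replicate 3, 22 of the 27 lay above their own mean, and in replicate 1, 5 did. For all genes these shares were 44.0% in replicate 3 and 57.2% in replicate 1. Set side by side, 22 of 27 collagen genes were higher in replicate 3 than in replicate 1, with a median log2 difference of 0.41 over the 27, whereas 43.1% of all genes above background were, with a median difference of -0.06. The median SD between arrays was 0.25 for these 27 genes and 0.15 for all genes above background. With 5 arrays, correlations across samples were not computed, and these counts are given as a description. The genes share the same 5 RNA samples and are not independent of each other.

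All 6 fibrillar genes above background, Col1a1, Col1a2, Col3a1, Col5a1, Col5a2 and Col27a1, had their highest value in replicate 3. Each of these 6 genes had 1 further probe set above background, and all 6 of those were highest in replicate 3 as well. They read the same RNA on the same arrays and are not independent of the first. Col1a2 and Col5a1 each had another probe set, not above background, highest in replicate 4 at 5.81 and in replicate 1 at 7.88. After a repeated quantile normalization the count was 6 of 6, and with arrays centred on their medians it was 5 of 6, the other being highest in replicate 5. Averaged over the 6 genes, replicate 1 lay 0.20 below the gene means (-0.20) and replicate 3 lay 0.26 above them, a range of 0.46. Without replicate 3 the range was 0.30.

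Basement membrane genes were spread over more than 1 pattern. Of the 8 above background, 4 were highest in replicate 5, 2 in replicate 3, 1 in replicate 1 and 1 in replicate 2, and 5 were lowest in replicate 1. Of all genes above background, 8.99% were highest in replicate 5. The order depended on the processing. After quantile normalization 4 were highest in replicate 3 and 3 in replicate 5, and with probe sets averaged 2 were highest in each of replicates 1, 3 and 5. Of 5 further probe sets of these genes above background, 2 were highest in replicate 2 and 1 in each of replicates 1, 4 and 5. The mean deviation of the 8 genes ranged over 0.34, from -0.21 in replicate 1 to 0.13 in replicate 3. Without replicate 1 it ranged over 0.14, so that replicate carries most of the range. The 13 other genes ranged over 0.35, and over 0.18 without replicate 3. The mean hides opposite movements within this class. Replicate 3 was highest for 7 of the 13, among them Col6a1, Col6a2, Col6a3, Col13a1 and Col25a1, and lowest for Col9a1 and Col26a1.

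**Figure D3:**
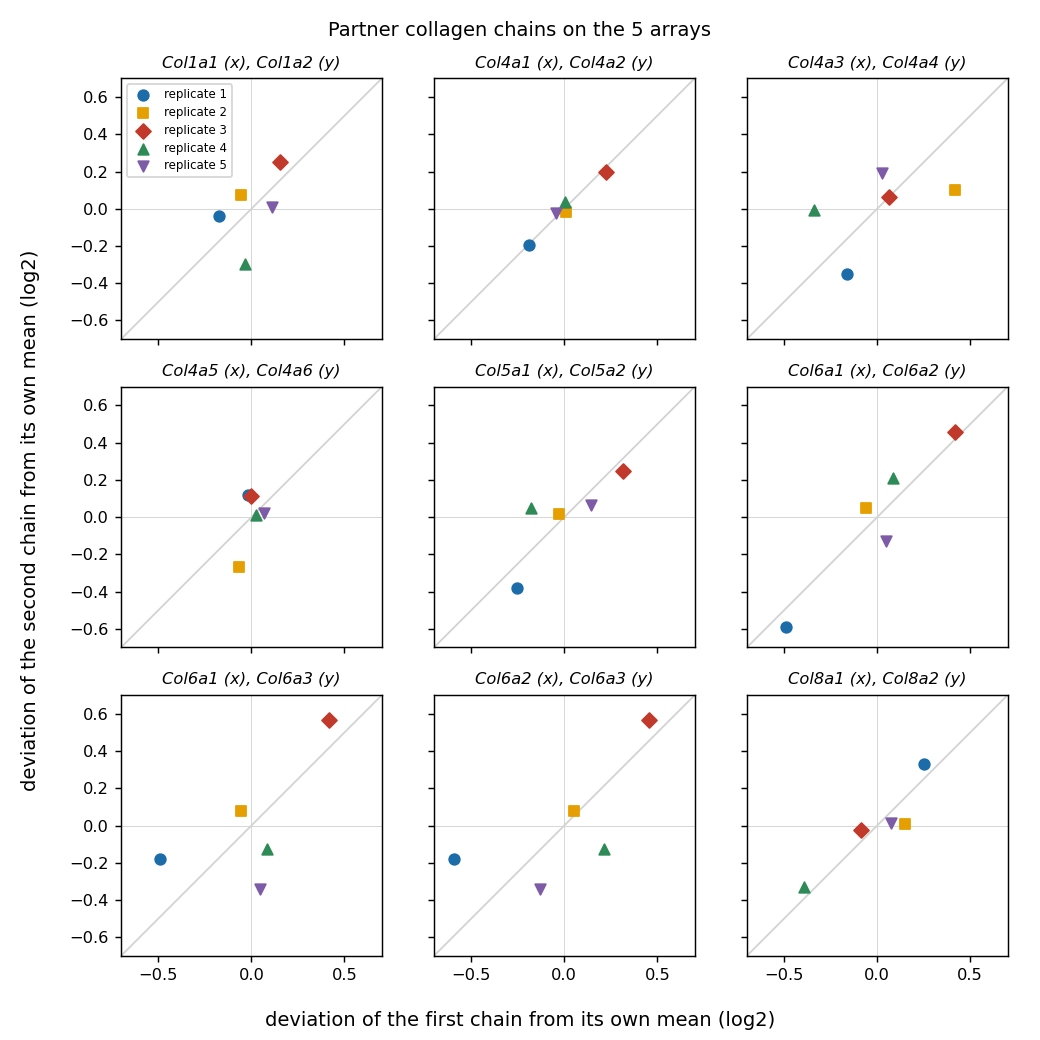
Deviations of partner collagen chains, those known to share a trimer or a head-to-head gene pair, on the 5 arrays. Each panel plots the deviation of one chain from its own mean against that of the other in log2 units, each symbol is 1 replicate and the diagonal marks equal deviations. Points of Col4a1 and Col4a2 lie on the diagonal, with an average difference of 0.02, and those of Col6a1 and Col6a3 lie farthest from it, at 0.24.

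On the probe sets chosen, partner chains of 1 trimer or gene pair had a smaller median difference in deviation than all pairs of collagen genes. For the 9 such pairs with both chains above background, the deviations differed by a median of 0.11 (lowest 0.02, highest 0.24). For all 351 pairs of collagen genes above background the median was 0.22, and for 13 pairs of probe sets of the same gene it was 0.13. These pairs overlap in their genes and arrays, so the values are a description without a test. Within classes the median was 0.13 for fibrillar, 0.15 for basement membrane and 0.28 for other genes. The 0.11 of partner chains lay close to the first 2 of these. Other called probe sets of the same chains gave differences up to 0.28, for Col5a1 with Col5a2 and for Col4a5 with Col4a6. Some gave smaller ones, down to 0.03 for Col1a1 with Col1a2 and 0.08 for Col4a5 with Col4a6.

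Most enzymes and chaperones of collagen synthesis were above background. They hydroxylate, fold, trim and cross-link the chains. Of 27 measured genes, 22 were above background (81.5%, against 62.6% of all genes), among them the prolyl hydroxylase subunits P4ha1 at 10.40 ± 0.08, P4ha2 at 8.21 ± 0.12, P4ha3 at 8.997 ± 0.282 and P4hb at 13.15 ± 0.06 (SD, n = 5 arrays). Several of these proteins also serve other substrates. Colgalt2, at 7.04 ± 0.15, Adamts3, at 6.33 ± 0.33, Tll1, at 3.59 ± 0.08, Pcolce2, at 7.33 ± 0.43, and Loxl4, at 6.20 ± 0.09, were not called. The mean deviation of the 22 genes ranged over 0.12 between arrays. Replicate 3 had the highest mean, at 0.05, with replicate 5 close to it at 0.03, and replicate 1 had the lowest, at -0.07. Replicate 3 held the highest value for 7 of the 22 genes and replicate 5 for 6, while replicate 1 held the lowest for 11. Among all genes above background, 20.5% were highest in replicate 3 and 20.6% lowest in replicate 1.

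Of 14 measured genes of collagen receptors and collagen-degrading enzymes, 6 were above background (42.9%, against 62.6% of all genes). They were the receptor tyrosine kinases Ddr1 at 11.87 ± 0.26 and Ddr2 at 8.17 ± 0.26, the integrin chain Itga1 at 10.23 ± 0.39, the endocytic receptor Mrc2 at 9.04 ± 0.35 and the metalloproteinases Mmp2 at 10.35 ± 0.34 and Mmp14 at 9.46 ± 0.22 (SD, n = 5 arrays). Itga2, another collagen-binding integrin chain, had a level of 6.95 ± 0.45 and was not called. All 6 called genes lay above their own means in replicate 3 and below them in replicate 1. Of all genes above background, 44% lay above their own means in replicate 3 and 57.2% in replicate 1.

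**Figure D4:**
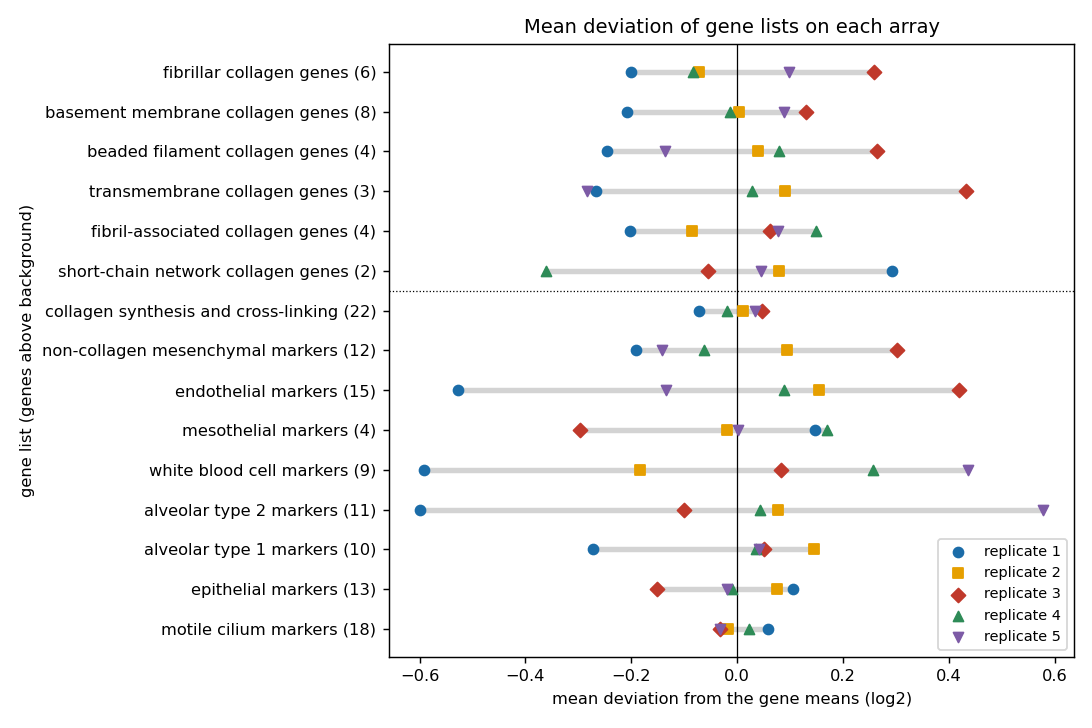
Mean deviation of collagen classes and of marker lists on each array. The horizontal axis is a log2 deviation, averaged over those genes of a list that were above background; each symbol is 1 replicate, the grey bar the range, and the number of genes is in brackets. Fibrillar, beaded filament, transmembrane, mesenchymal and endothelial lists all have replicate 3 at the high end, while the motile cilium list spans 0.09.

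Averaged over each list, mesenchymal and endothelial markers were highest in replicate 3 and lowest in replicate 1, as the collagen genes were. The 12 mesenchymal markers above background, none of them a collagen, ranged over 0.49, from -0.19 in replicate 1 to 0.30 in replicate 3. Counted by gene, 9 were highest in replicate 3, 6 were lowest in replicate 5 and 4 were lowest in replicate 1. The gene Dcn went the other way, lowest in replicate 3 at 7.48 and highest in replicate 5 at 9.06. In replicate 5 the mean deviation was 0.10 for fibrillar genes and -0.14 for these markers. Their whole list held 23 measured genes with means between 4.91 and 14.08, and the first 4 on it were Pdgfra at 9.69 ± 0.32, Pdgfrb at 8.91 ± 0.33 and Dcn at 8.04 ± 0.64, which were called, and Lum at 4.91 ± 1.10 (SD, n = 5 arrays), which was not. Vim, Acta2, Eln, Postn and Tcf21 were among the other genes called, and Thy1, Twist1 and Wnt2 among the 11 not called. The 15 endothelial markers ranged over 0.95, from -0.53 in replicate 1 to 0.42 in replicate 3, with 12 highest in replicate 3 and 13 lowest in replicate 1. The 4 mesothelial markers above background, of 7, had their lowest average in replicate 3, at -0.30, where 2 of the 4 were lowest. Msln was lowest in replicate 1, at 10.13, and Wt1 in replicate 5, at 8.01. Replicate 1 was also lowest for other lists. White blood cell markers, 9 of 14 above background, had -0.59 in replicate 1, where 8 of the 9 were lowest, and 0.44 in replicate 5, their highest. Alveolar type 2 markers had -0.60 in replicate 1, where all 11 were lowest, and 0.58 in replicate 5. Alveolar type 1 markers, all 10 above background, had -0.27 in replicate 1, where 8 were lowest. Epithelial markers ranged over 0.26 with replicate 3 lowest, at -0.15, and motile cilium markers over 0.09. The part of these cell types in the collagen values was not tested, and in such bulk samples a different number of cells of a type and a different amount of RNA per cell cannot be told apart.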

How the data were processed

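RNA from GFP+ cells sorted by flow cytometry was amplified and labelled with biotin and hybridised to Affymetrix mouse arrays, 1 for each of 5 biological replicates. The values deposited by the authors are on a log2 scale, as their range shows (2.37 to 15.11, array medians 7.18 to 7.26). The methods name Bioconductor in R; which background correction and normalization it applied is not given. Scanner output was not used here.

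After 64 control probe sets were left out, 45037 remained, of which 34945 carried 1 gene symbol, 932 several and 9160 none here. All 42 collagen symbols matched the RefSeq gene table of GRCm38.p6 by Entrez identifier. An intercept was fitted with limma 3.58.1 in R 4.3.3, with a one-sided moderated test against the background level and Benjamini-Hochberg adjustment over 45037 probe sets; the script was tested on simulated data. Python 3.11.15 (pandas 2.3.3) served for the rest.

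The members, lists and tests were chosen with earlier results of these data known, and the cartilage list was added after the values had been seen. All collagen genes may be named; values on all arrays are given for types I, III, V, IV, VI, XV, XVII and XVIII, for the 5 genes with the largest and the 5 with the smallest SD, and for genes whose call changes, and of other lists the first 4 genes and up to 5 exceptions are named. Further genes were named after their values were seen. The alternatives averaged a gene's probe sets, left out suffixed probe sets, quantile-normalized or centred the arrays, required all 5 arrays above the level, tested only the brighter probe sets, changed the background genes or percentile, and left out each replicate. The number of arrays limits the precision.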

Additional observations from a re-analysis of the deposited data

Results flagged for a closer look

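Each of the 42 collagen genes was examined for an array far from the other 4, by Dixon's ratio of the gap to the whole range, with a limit of 0.71; chance flags about 1 gene in 20. Col2a1 had a ratio of 0.847, with 7.15 in replicate 5 against 6.12 on the nearest array. Col9a1 had 0.770, with 8.11 in replicate 3 against 8.64, and Col4a6 had 0.720, with 9.33 in replicate 2 against 9.60. Col11a2 had 0.717, with 5.22 in replicate 5 against 5.35. None of the mean deviations of the 3 classes, nor that of all collagen genes, passed the limit.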

How the results depend on the processing

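No paired analysis was possible because there was 1 group of samples. The count of 27 collagen genes above background was 27 without any 1 replicate, with quantile-normalized or median-centred arrays, with all 5 arrays above the level and over the brighter probe sets. Centring on medians leaves the gene means and the level as they were, and the brighter probe sets were tested against the same level. Neither of these settings could readily change the count. The count was 23 with probe sets averaged and 25 without suffixed probe sets. With the 99th percentile it was 10, with 3 basement membrane and 3 other genes, and with the tissue-restricted genes alone, at 9.11, the other genes numbered 6. The range of the fibrillar mean was 0.28 over all members of the class, that of the other class was 0.53 with the median over genes. Leaving out 1 replicate gave ranges of 0.14 to 0.34 for basement membrane genes and 0.18 to 0.35 for other genes.

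The distance from the background level changed sign for single genes (log2 distance under the alternative in brackets). With the 99th percentile these were Col4a3 (-0.76), Col4a4 (-0.30), Col4a6 (-0.78), Col5a1 (-0.68), Col8a1 (-0.54), Col9a1 (-1.79), Col13a1 (-1.90), Col14a1 (-1.58), Col15a1 (-1.21), Col16a1 (-2.28), Col18a1 (-0.37), Col20a1 (-2.002), Col23a1 (-1.51), Col25a1 (-0.35) and Col26a1 (-1.01). With the receptor genes alone they were Col2a1 (0.84), Col5a3 (1.44), Col6a4 (1.41), Col6a5 (1.17), Col7a1 (1.12), Col9a3 (1.37), Col11a1 (0.93), Col12a1 (1.60) and Col22a1 (0.84). With the tissue-restricted genes alone they were Col9a1 (-0.52), Col13a1 (-0.63), Col14a1 (-0.31), Col16a1 (-1.01), Col20a1 (-0.73) and Col23a1 (-0.24). With probe sets averaged they were Col9a1 (-0.31), Col14a1 (-0.079), Col20a1 (-0.38) and Col26a1 (-0.88), and without suffixed probe sets Col5a3 (0.14), Col6a4 (0.10), Col9a3 (0.063), Col12a1 (0.30) and Col26a1 (-3.07). In the first 3 settings only the level differs. Leaving out suffixed probe sets lowered the level as well, by 0.66 to 6.74, and Col5a3, Col6a4, Col9a3 and Col12a1 kept their probe set, so that shift alone changed their sign. That setting gave no value for 4 collagen genes, Col6a2 among them, and testing the brighter probe sets alone gave none for the 15 genes not above background. The background level thus limits what can be called present, and dim probe sets near it have no settled call.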

Other observations

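Some genes of quite different tissues were highest in replicate 5, as Col2a1 was; they were singled out after their values were seen. Alb, the liver's serum albumin, had 5.83, 5.81, 6.11, 5.86 and 8.54 in replicates 1 to 5. Gcg, the glucagon gene, had 3.48, 3.58, 3.25, 3.44 and 5.40. The mesenchymal genes Lum, with 4.88, 4.41, 3.87, 4.63 and 6.76, and Thy1, with 6.16, 6.30, 6.49, 6.35 and 7.77, had the same array highest. So did Dcn, which was above background, with 8.26, 7.66, 7.48, 7.73 and 9.06. It was the only 1 of the 12 mesenchymal markers above background that was highest there. Of the 63 tissue-restricted background genes, 17 were highest in replicate 5 and most were not. The share of 8.99% highest in replicate 5 covers genes above background only, and most of these 63 were not above it. A matching share over all genes was not computed, so the 17 cannot be read as an excess. The means of Col2a1, Alb, Gcg, Lum and Thy1 were not above background.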
